A study of Mus musculus with 45 samples.

Results

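The progress of the transcription wave-front between 5 and 15 min after DRB removal was measured in slow/slow ESCs, mouse embryonic stem cells in which both alleles of Polr2a carry the R749H mutation. The members were the transcripts of at least 20 kb that had a wave-front boundary in each of the 6 slow/slow samples, 3 after 5 min and 3 after 15 min. These were 25500 of the 122968 transcripts in the deposited tables, and they came from 8441 genes. A further 9531 transcripts of this length lacked a boundary in at least 1 of the 6 samples, and 3761 of those had none at all. The slow/slow line was made from E14 ESCs by successive rounds of targeting of the endogenous gene, and the cells were grown in 2i medium. All cultures described here, the WT/WT and WT/slow ones included, received 100 μM DRB for 4 h, were washed and returned to medium without DRB, and were pulsed with 4-thiouridine (4sU) for 10 min before harvest. WT/WT ESCs carry no mutation and WT/slow ESCs carry it on 1 allele, and both were harvested at the same times in 3 biological replicates each. The genotypes are separate ESC lines, so a difference between genotypes and a difference between lines cannot be told apart.

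RNA polymerase II (RNAPII) transcribes all protein-coding genes, and Polr2a encodes its largest subunit, which holds the catalytic site. After initiation the enzyme halts close to the promoter until the kinase P-TEFb phosphorylates the elongation factor Spt5 and the tail of this subunit. DRB blocks that kinase, so that polymerases gather near the start sites, and its removal lets them move off together. The far edge of the newly made RNA, the wave-front, then marks how far the first polymerases have travelled, and its advance over time gives an elongation rate.

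The mutated codon is shown here because it is what sets these cells apart from the parental line. The stretch is the coding strand of Polr2a on GRCm38, chr11:69743327-69743387, reverse strand, in exon 14, with the reference arginine codon at the R749H site in capitals, which is a histidine codon in the slow allele:
Polr2a: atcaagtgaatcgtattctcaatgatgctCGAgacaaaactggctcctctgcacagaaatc

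Each boundary says how many bases lie between the start site and the wave-front, in steps of 100 bases, and the rate of a transcript was taken as the mean boundary after 15 min minus the mean after 5 min, divided by 10 min. Between 43636 and 45312 transcripts of any length had a boundary in the 5-min samples and between 50553 and 53116 in the 15-min samples. The tables hold no read counts, so the depth is unknown and the spread of 3 replicates is the only measure of error. Of the 10 markers of pluripotent cells examined, 3 (Esrrb, Sall4 and Tfcp2l1) had a boundary in all 6 samples, against 1 of 6 neural, 2 of 4 endoderm, 1 of 4 mesoderm and 0 of 4 fibroblast markers. A boundary is not an expression level, and most of the pluripotency markers are short genes. Polr2a itself gave no member, since neither of its 2 transcripts over 20 kb had all 6 boundaries.

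Over all members, the wave-front advanced little on average, because a large group of transcripts lay farther from the start site after 5 min than after 15 min. The median boundary of the single replicates was 10.1, 9.2 and 7.5 kb after 5 min and 6.9, 10.4 and 11.6 kb after 15 min. Replicates of both times overlapped (p = 0.7 in a two-sided exact permutation test, in which 3 against 3 samples cannot go below 0.1). The median rate was 370 bases/min, with quartiles of -143 and 1420 bases/min.

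A single value, 2.5 kb, accounted for much of this. It was the boundary of 18.2%, 21.2% and 21.7% of the members in the 5-min replicates and of 36.5%, 34.5% and 31.2% in the 15-min replicates. Every 15-min replicate was above every 5-min replicate (20.3% ± 1.88 and 34.1% ± 2.68, SD, n = 3; exact permutation test, two-sided, p = 0.1, the smallest possible). Members were therefore divided by where their 2.5-kb boundaries lay.

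The 9703 members without any boundary at 2.5 kb, 38.1% of the total, mostly had their front farther from the start site after 15 min. Leaving out every transcript with a late boundary at 2.5 kb also leaves out most backward moves, so the direction in this set is partly fixed by its choice and is given as a description, with no test. Their replicate medians were 11.7, 10.5 and 9.2 kb after 5 min and 29.2, 30.4 and 26.0 kb after 15 min. The groups did not overlap, and the means were 10.5 ± 1.25 kb and 28.5 ± 2.27 kb (SD, n = 3). Their median rate was 1580 bases/min, with quartiles of 847 and 2065 bases/min. The mean boundary was farther after 15 min than after 5 min in 8961 of them and nearer in 718. Single boundaries were noisy, with a median SD of 2.82 kb after 5 min and 4.34 kb after 15 min, and Spearman's rho between replicates over these members, which share a gene annotation and a protocol, was 0.249 to 0.265 after 5 min and 0.489 to 0.616 after 15 min.

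Another 6874 members had a boundary at 2.5 kb only after 15 min. They were short, with a median length of 30.3 kb against 72.3 kb in the members without such a boundary, and their median rate was -460 bases/min. In 2566 of them all 3 replicates after 15 min lay at 2.5 kb while none did after 5 min. The reverse, 2.5 kb only after 5 min, was found in 2462 members with a median length of 68.8 kb and a median rate of 830 bases/min. Boundaries at 2.5 kb occurred at both times in 5636 members (median rate 36.7 bases/min), and all 6 boundaries lay there in 825.

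**Figure D1:**
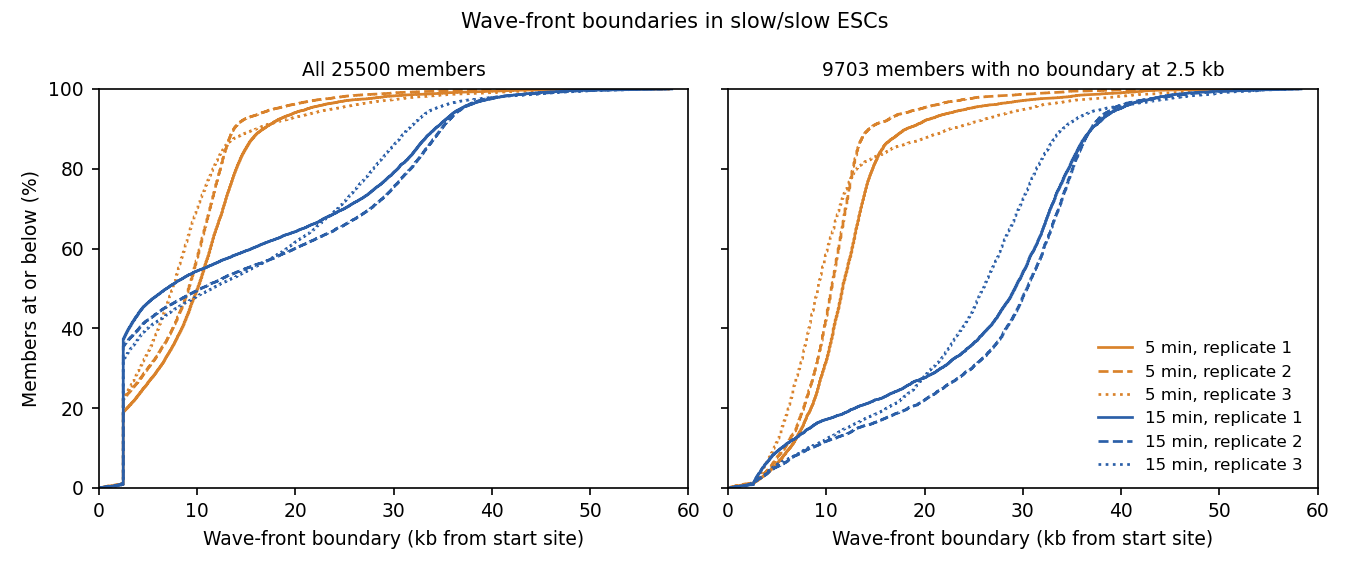
Cumulative share of members (%, vertical axis) against wave-front boundary (kb from the start site, horizontal axis) in each slow/slow replicate after 5 min (orange) and 15 min (blue), for all members and for those with no boundary at 2.5 kb. The vertical step at 2.5 kb holds 31.2 to 36.5% of the members after 15 min, and without it the medians lie at 9.2 to 11.7 kb and at 26.0 to 30.4 kb.

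**Figure D2:**
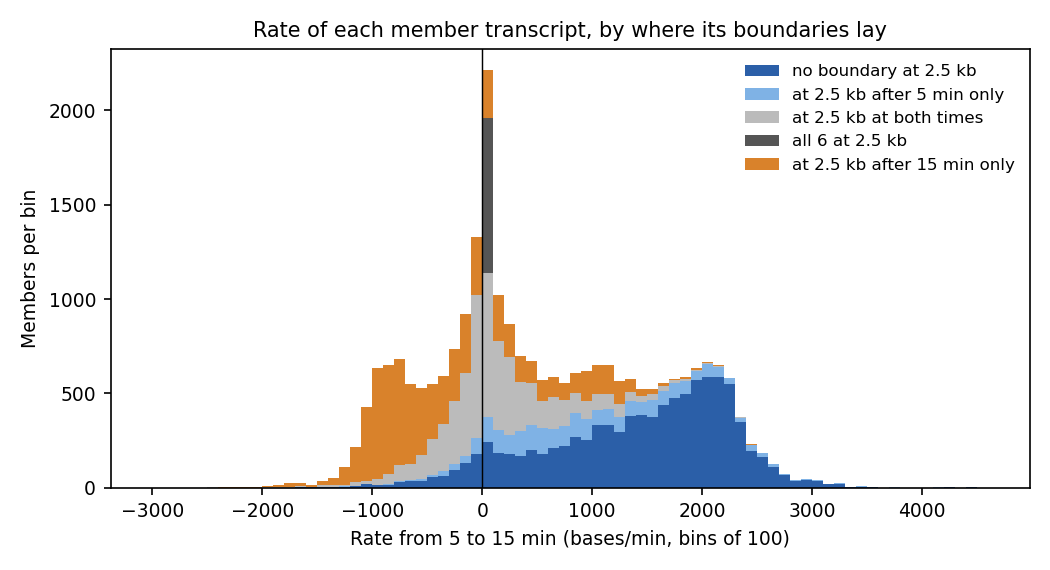
Number of members (vertical axis, bins of 100 bases/min) by rate from 5 to 15 min (bases/min, horizontal axis), stacked by where boundaries at 2.5 kb lay. Members without such a boundary have a median of 1580 bases/min, and those with it only after 15 min one of -460 bases/min.

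Forward moves outnumbered backward ones. Of the 25500 members, 5659 (22.2%) moved forward and 2521 (9.89%) moved backward at an adjusted p below 0.05 (limma with Benjamini-Hochberg adjustment over 30758 transcripts of any length, of which 18.6% were called forward and 14.7% backward). The 842 members with 6 equal boundaries could not be fitted. By complete separation of the replicates, 7013 members were forward and 3426 backward, against 21.9% and 18.4% of the 32699 transcripts of any length with 6 boundaries. Of the forward calls, 5046 were members without a boundary at 2.5 kb and 613 had 2.5 kb only after 5 min. Of the backward calls, 2452 had 2.5 kb only after 15 min, and 69 had no boundary there. In 1 transcript per gene, the longest, 1897 of 8441 genes were forward and 904 backward (23.2% and 11.1% of the 8173 fitted).

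Transcript length separated the directions. Among genes called backward, 95.1% were shorter than 40 kb and the median length was 25.1 kb. Among genes called forward, 6.11% were shorter than 40 kb and the median length was 78.0 kb. The mean front of forward genes lay at a median of 30.8 kb after 15 min.

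Members of 20 to 30 kb had a median rate of -470 bases/min, and 2048 of 5612 were backward against 96 forward. Their share of boundaries at 2.5 kb went from 16.4, 17.7 and 18.3% after 5 min to 67.7, 68.8 and 63.0% after 15 min. In members of 30 to 40 kb that share was 45.0% ± 8.72 after 15 min (SD, n = 3) and the median rate was 66.7 bases/min. Members of 40 to 50 kb had 24.4% ± 6.17 at 2.5 kb after 15 min and a median rate of 817 bases/min. Between 50 and 200 kb the 2.5-kb shares of both times overlapped: in members of 60 to 100 kb they were 16.6, 17.8 and 20.2% after 5 min and 19.7, 15.8 and 16.3% after 15 min. The direction turned in members of at least 200 kb, with 34.0% ± 3.89 at 2.5 kb after 5 min and 26.7% ± 2.82 after 15 min (SD, n = 3; exact permutation test, two-sided, p = 0.1, the smallest possible). At 1 transcript per gene the replicates of this class overlapped, with 27.2, 36.2 and 32.3% after 5 min and 21.02, 28.3 and 23.4% after 15 min (exact permutation test, two-sided, p = 0.2).

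Without 2.5-kb boundaries, the rate reached a plateau with length. It was 13.3 bases/min in the 515 such members of 20 to 30 kb, 957 bases/min at 30 to 40 kb and 1545 bases/min at 40 to 50 kb. From 50 kb on it lay between 1535 and 1793 bases/min, the lowest value being that of members of at least 200 kb. On either side of the 20-kb limit the values were alike: 644 transcripts of 19 to 20 kb had a median rate of -640 bases/min and 668 of 20 to 21 kb one of -543 bases/min. Among the members without a 2.5-kb boundary, few fronts were close to a limit of measurement. That count leaves out every member with a boundary at 2.5 kb, among them most of those of 20 to 30 kb. It therefore cannot show how far length limits the rates of the short classes. In 149 of the 9703 members at least 1 front after 15 min lay in the last 10% of the transcript, and in 45 at least 1 lay at 55 kb or farther, near the highest boundary in the tables, 59.3 kb.

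**Figure D3:**
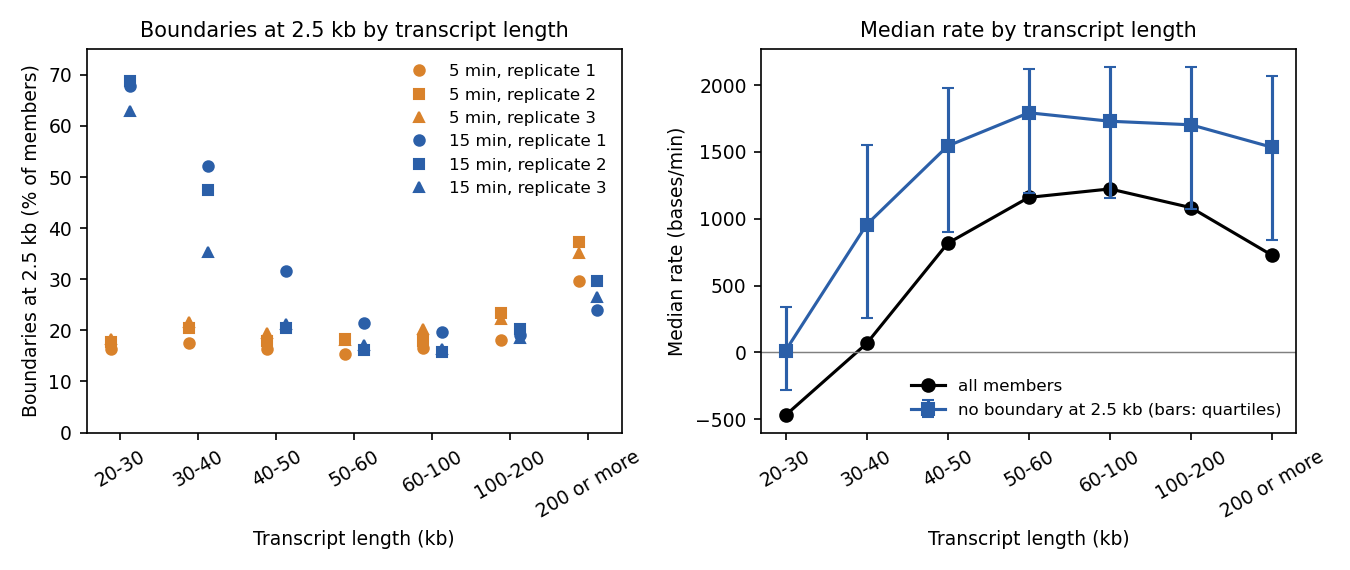
Left, share of members with a boundary at 2.5 kb (%) in each slow/slow replicate after 5 and 15 min, by transcript length (kb). Right, median rate (bases/min) of all members and of those without a boundary at 2.5 kb, with quartiles as bars: the latter rises from 13.3 bases/min at 20 to 30 kb to 1793 bases/min at 50 to 60 kb.

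Genes of at least 60 kb without a 2.5-kb boundary, 2130 in number, gave rates that transcript length did not cap. Their median rate was 1677 bases/min, with 5th and 95th percentiles of 8.17 and 2590 bases/min, and 70.4% lay between 1000 and 2500 bases/min. The root mean square standard error of a rate was 582 bases/min and the standard deviation over genes 808 bases/min. The variance over genes beyond replicate error was 48.1% of the total. In this set 1187 genes were called forward and 5 backward (55.7% and 0.235%), a direction partly fixed by leaving out genes with 2.5-kb boundaries. Where a gene of this length had several start sites among the members, the highest and the lowest rate differed by a median of 103 bases/min over 1286 genes. Transcripts of a gene share reads, and 739 of 1946 start sites used by several members had the same 6 boundaries for all of them.

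The front was relatively far after 5 min. In these 2130 genes the mean boundary had a median of 11.1 kb at 5 min and 29.2 kb at 15 min. Divided by 5 min, the first distance corresponds to 2213 bases/min (2400, 2160 and 1860 bases/min in the 3 replicates), above the 1677 bases/min of the following 10 min. The ratio of the boundaries, which is 3 at constant speed from the start site, had a median of 2.51 and was under 3 in 73.7% of the genes. A contrast of the 15-min boundary with 3 times the 5-min boundary called 3935 members slower and 47 faster than constant speed (limma; 16.0% and 0.191% of the members fitted, against 22.4% and 0.153% of the transcripts of any length). Only 529 of the slower calls were in members without a boundary at 2.5 kb, and a refit to those members alone called 29 slower and 0 faster (limma; 32 faster with an unadjusted p below 0.05). Whether a front already lay inside the gene at the time of DRB removal was not tested.

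Gene features varied little with rate. Over the same 2130 genes, Spearman's rho with the rate was -0.07 for length, 0.14 for the number of exons, 0.01 for the first intron's length and -0.02 for the number of exons in the first 30 kb. It was -0.14 for the GC content of the first 10 kb and -0.16 for that of the next 20 kb, up to 30 kb, which is roughly the stretch the front crossed. The corresponding Pearson coefficients were -0.06, 0.08, -0.05, 0.01, -0.13 and -0.14. These are descriptions over genes, which share samples and are not independent replicates. The median GC content between 10 and 30 kb was 43.1% in the 534 genes with the lowest rates and 41.1% in the 534 with the highest. In 22 genes the start site of another coding gene on the same strand lay within the first 30 kb, and their median rate was 458 bases/min, against 1690 bases/min in the 2084 genes with no such start on either strand.

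The highest rates among protein-coding genes of at least 60 kb, taken from those called forward with separated replicates and no boundary at 2.5 kb, lay between 3263 and 4460 bases/min. These 10 genes, and the 10 with the lowest rates, were chosen on these values, which are therefore a description. The front of Zmiz1 (ENSMUST00000162645, chr14:25459224-25666743, forward strand), a transcriptional coactivator, was at 10.1, 6.1 and 7.7 kb after 5 min and at 54.4, 46.1 and 57.2 kb after 15 min. The mean front moved from intron 1 to intron 2 of this transcript, which is 207.5 kb long. All 3 late values lay far beyond the early ones, a rate of 4460 ± 322 bases/min (SE).

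Kdm2b (ENSMUST00000118027, chr5:122870679-122989306, reverse strand), a histone demethylase that brings Polycomb proteins to CpG islands, followed with 9.5, 9.1 and 6.2 kb and then 44.1, 51.4 and 56.1 kb, a rate of 4227 ± 331 bases/min. Vps13b (ENSMUST00000048646, chr15:35371546-35931228, forward strand), a lipid-transfer protein of the Golgi, had the tightest late front. It lay at 13.5, 9.5 and 9.3 kb after 5 min and at 47.9, 48.5 and 47.7 kb, in intron 4, after 15 min. The other 7 were Gm49387, the mechanosensitive channel gene Piezo1, Dera, Focad, Mettl25, Rapgef2 and Pcca, with rates of 3263 to 3537 bases/min. Their late replicates were wide apart: the SD after 15 min had a median of 8.83 kb over the 10 genes, and Dera gave 24.5, 53.9 and 49.8 kb. The calls of Dera and Rapgef2 were lost when single samples were left out.

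At the low end, fronts moved a short way. A low rate could enter this choice only with a small spread, so the spread of these genes is set by the rule. Ttc8 (ENSMUST00000085109, chr12:98920574-98983232, forward strand), a subunit of the BBSome that serves cilia, had its front at 7.2, 6.1 and 5.9 kb after 5 min and at 12.1, 12.5 and 12.5 kb after 15 min. The replicates were separated, and the rate was 597 ± 89.3 bases/min (SE). Arhgef10 (ENSMUST00000084207, chr8:14911663-15001085, forward strand), which activates small GTPases, moved from 13.9, 14.8 and 12.9 kb to 23.1, 22.5 and 22.4 kb, a rate of 880 ± 96.3 bases/min. Myo9a, an unconventional myosin, was already at 27.8, 24.8 and 28.1 kb after 5 min and reached 34.9, 34.5 and 31.1 kb. The remaining 7, Gm12185, Gm42416, the kinase gene Dclk2, the nuclear receptor coactivator gene Ncoa1, Tsga10, and the transporter genes Abcc5 and Slc1a1, had rates of 460 to 800 bases/min. Within the first 30 kb of Gm42416 lay the starts of 5 other coding genes on the same strand. Gm12185 had 1 such start on the same strand and 1 on the opposite strand. Arhgef10 was the only one of the 10 slow genes whose call held under each alternative fit, while 8 of the 10 fast genes held.

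The genomic sequence under the tightest late front of the fast and of the slow genes is given to show what lies there, in each case 100 bases of intron centred on the mean front after 15 min (GRCm38, forward strand, Vps13b at chr15:35419528-35419627 with a GC content of 43.0%, and Ttc8 at chr12:98932890-98932989 with 53.0%):
Vps13b: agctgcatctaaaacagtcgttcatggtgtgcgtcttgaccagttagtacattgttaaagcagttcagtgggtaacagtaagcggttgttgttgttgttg
Ttc8: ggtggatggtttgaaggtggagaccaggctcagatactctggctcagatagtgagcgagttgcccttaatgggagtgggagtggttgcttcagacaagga

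Other values of the high and low genes are given as a description. The GC content between 10 and 30 kb had a median of 43.2% in the fast and 41.1% in the slow genes, the opposite order to that over all 2130 genes. The front after 5 min had a median of 8.15 kb in the fast and 9.88 kb in the slow genes. The 5-min boundary is subtracted in the rate by which both were chosen, so this order is partly fixed by the choice. After 30 min, 19 of the 30 boundaries of the fast genes and 18 of the 30 of the slow genes lay at 2.5 kb. That was common at this time. Of the 5992 members of at least 60 kb that lacked 2.5 kb at the earlier times, 5863 had 3 boundaries after 30 min. Of the boundaries these 5992 members had in each of the 3 replicates, 68.9, 74.7 and 71.3% lay at 2.5 kb. Rates were therefore not extended to 30 min.

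In cells of the other genotypes, which played no part in the choice, the order was kept in the medians. The 10 fast genes advanced at a median of 1548 bases/min in the WT/WT line (from -2270 to 3187) and the 10 slow genes at 55 bases/min (from -687 to 1947). In WT/slow cells the medians were 1477 bases/min over the 8 fast genes with 6 boundaries and 562 bases/min over the 10 slow genes. The ranges overlapped in both genotypes. Many of these values rest on boundaries at 2.5 kb. In WT/WT cells only 8 fast and 2 slow genes had none there, with medians of 1848 and -140 bases/min. In WT/slow cells 4 fast and 6 slow genes had 6 boundaries and none there, with medians of 1910 and 562 bases/min.

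**Figure D4:**
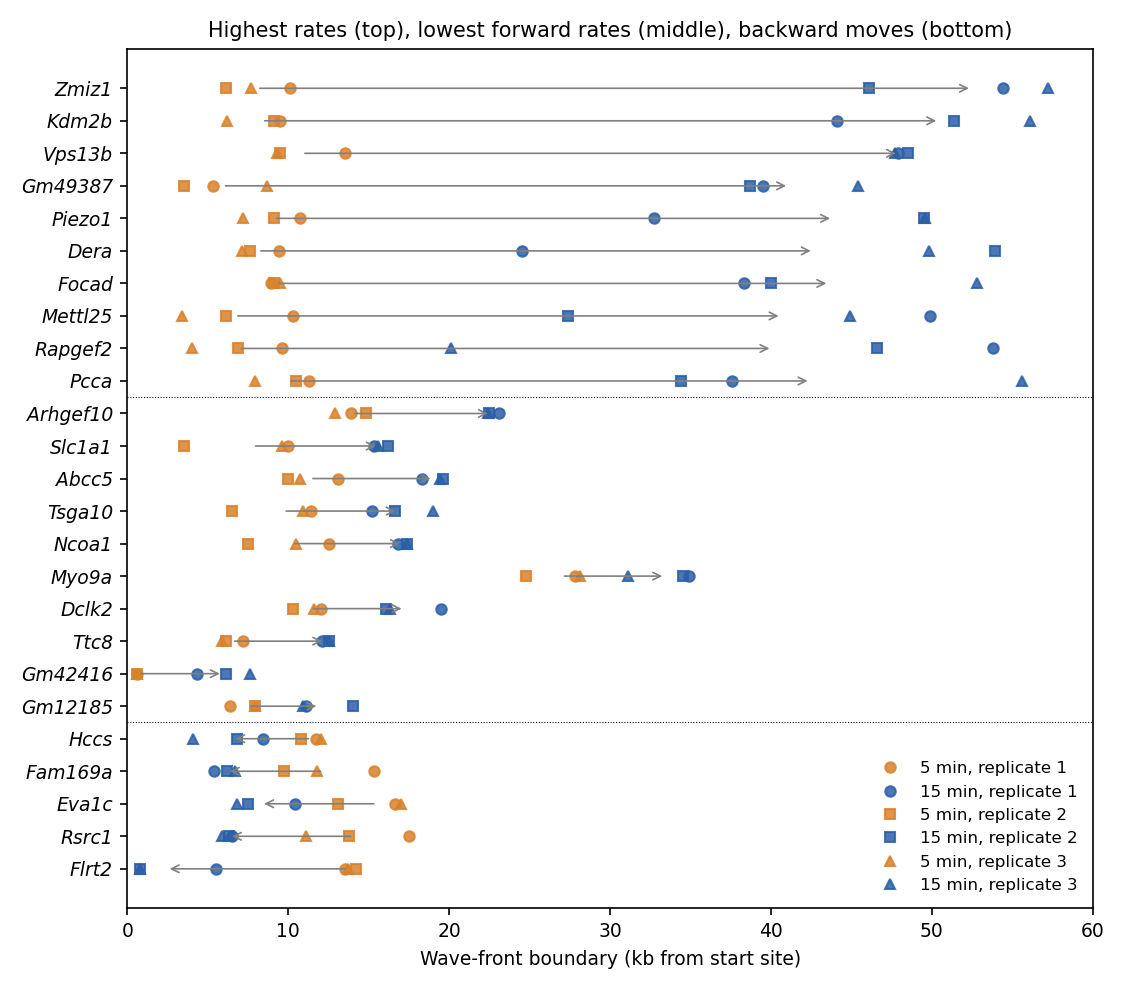
Wave-front boundaries (kb from the start site) after 5 min (orange) and 15 min (blue) in each slow/slow replicate of the 10 genes with the highest and the 10 with the lowest forward rates and of the 5 largest backward moves. Arrows run from the mean after 5 min to the mean after 15 min, up to 52.6 kb in Zmiz1 and back to 2.37 kb in Flrt2.

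Few long transcripts were called backward. Of the 11449 members of at least 60 kb, with or without 2.5-kb boundaries, 42 were called (0.367%), against 14.7% of transcripts of any length. Of the 2130 genes of this length without a 2.5-kb boundary, 5 were called (0.235%). Leaving out 2.5-kb boundaries also leaves out most backward moves, so this count is a description. These 5 genes too were chosen on their values. In Flrt2 (ENSMUST00000057324, chr12:95692226-95785215, forward strand), a cell-surface ligand of axon guidance receptors, the front was at 13.5, 14.2 and 13.7 kb after 5 min and at 5.5, 0.8 and 0.8 kb after 15 min. All 3 replicates after 30 min also lay at 0.8 kb. Its rate was -1143 ± 161 bases/min (SE). Rsrc1, Eva1c, Fam169a and Hccs had rates of -790 to -507 bases/min, and their fronts went from between 9.7 and 17.5 kb back to between 4.1 and 10.4 kb. Their calls were unstable: each was lost when one or another single sample was left out, and of 14 alternative fits Rsrc1 and Eva1c kept theirs in 7, Fam169a in 4 and Hccs in 2, while Flrt2 kept its call in all 14. Among long genes called backward with a boundary at 2.5 kb, the largest falls were in the sodium channel gene Scn3a (12.6, 28.6 and 28.4 kb, then 2.5, 6.1 and 2.5 kb), in Dhx32 and in the DNA-damage ubiquitin ligase gene Rad18, whose front went from 12.6, 9.3 and 19.7 kb to 2.5 kb in all 3 late replicates. The calls of Scn3a and Rad18 were also lost when single samples were left out.

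Departures from constant speed were compared among protein-coding genes of at least 60 kb without a 2.5-kb boundary. The largest that were called lay in 2 of the fast genes and in a few others. Dnah12, which encodes an axonemal dynein, started from 4.2, 4.4 and 4.5 kb and reached 38.8, 34.9 and 33.8 kb, 22.7 ± 3.5 kb (SE) beyond 3 times its early distance. Zmiz1 and Gm49387 had larger departures, 28.7 ± 7.19 and 23.7 ± 5.45 kb. Kdm2b, another fast gene, had one of 25.7 ± 7.4 kb that was not called (limma, adjusted p = 0.0669). Tmem241 was the clearest at the other end: its front lay at 29.5, 29.6 and 36.6 kb after 5 min and at 29.1, 30 and 36.3 kb after 15 min. It did not advance, and each replicate number had nearly the same boundary at both times. Ptger3 and Mfsd6, far along after 5 min with means of 33.4 kb each, had wide replicates at that time (SD of 10.3 and 9.70 kb). A refit to members of 60 kb or longer called 0 faster and 0 slower (limma; 39 and 777 with an unadjusted p below 0.05). None of the departures called above held there. In 35 of the 2130 genes the mean front after 15 min lay within 1 kb of a mean 5-min position of 10 kb or farther. Of these genes, 0 had an SD of 1 kb or less at both times, so the equal means rest on spread replicates.

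The 4 genes with a member that the study used as examples all moved forward. Notch1, the receptor, was at 16.5, 12.9 and 11.2 kb and then at 29.6, 31.1 and 25.6 kb, a rate of 1523 ± 216 bases/min (SE). Itpr1, the calcium channel of the endoplasmic reticulum, had a rate of 1977 ± 189 bases/min and Ern1, a sensor of unfolded proteins, one of 1830 ± 201 bases/min. These values lie in the middle of the range of long genes. Utrn, which encodes utrophin, was at 4.7, 2.5 and 2.5 kb after 5 min and at 25.9, 17.9 and 18.5 kb after 15 min, so that its rate of 1753 ± 249 bases/min rests on 2 early boundaries at 2.5 kb (limma, adjusted p from 0.00182 to 0.00483 for the 4 genes).

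Among 38 genes that control elongation, 26 had a member. Over all 8441 genes 22.5% were forward and 10.7% backward, and their median rate was 390 bases/min. Of the 26 elongation genes, 10 were forward (38.5%), 9 backward (34.6%) and 7 neither, and length separated the directions without overlap: the forward genes spanned 42.8 to 104 kb and the backward genes 23.6 to 38.5 kb. Forward fronts were close together after 15 min, with means of 27.8 to 34.5 kb. The kinase genes Cdk12 and Cdk13 had rates of 2023 and 2053 bases/min, and Cdc73, of the Paf1 complex, 2150 bases/min. Super elongation complex genes Ell, Ell2, Mllt1 and Aff4 were forward as well (1580 to 2170 bases/min), while Aff1 (-30 ± 681 bases/min) and Mllt3 (1387 ± 555 bases/min) were called neither.

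The backward genes of this list included both cyclins of P-TEFb, Ccnt1 and Ccnt2, the Paf1 complex genes Ctr9 and Leo1, and Supt5, which encodes Spt5. The front of Supt5, a gene of 23.9 kb, was at 18.9, 13.4 and 12.6 kb after 5 min and at 2.5 kb in all replicates after 15 min. In 6 of the 9 genes every late boundary was at 2.5 kb. Those called neither included Tcea1, the elongation factor TFIIS, whose 3 late values held 1 at 2.5 kb (rate 1217 ± 908 bases/min).

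Chromatin regulators were long, with a median of 80.5 kb against 54.6 kb over all genes with a member. Of 71 genes 67 had a member, and 34 of them were forward (50.7%), 7 backward (10.4%) and 26 neither. The forward genes spanned 39.5 to 226 kb and the backward genes 23.5 to 40.3 kb. Beside Kdm2b, the histone acetyltransferase genes Kat6a (2627 ± 204 bases/min), Crebbp (2387 ± 261) and Ep300 (2097 ± 273), the demethylase genes Kdm6a (2580 ± 170) and Kdm5a (2323 ± 116) and the methyltransferase genes Setd2 (2260 ± 137) and Kmt2a (1980 ± 135) were among them. Other acetyltransferase genes were not: Kat7 was backward (-813 ± 156 bases/min), and Kat6b and Kat2b were called neither (370 ± 362 and 423 ± 910 bases/min). The demethylase genes Kdm1a, Kdm3a, Kdm4a, Kdm4c and Kdm5c were also called neither. Among methyltransferase genes, Dot1l (-740 ± 105 bases/min) and Setd1a (-787 ± 184 bases/min) were backward, and Nsd1 (-63.3 ± 704 bases/min) was called neither. Trrap, the forward gene with the most exons of the list, 71, had a rate of 1627 ± 340 bases/min, and its mean late front lay in exon 17. Polycomb genes were split: Suz12 (41.0 kb, 2393 ± 226 bases/min) and Ezh2 (64.9 kb, 2107 ± 330 bases/min) were forward, and Eed (26.3 kb) went from 15, 13.9 and 15.3 kb to 2.5 kb in all replicates. Histone deacetylase genes Hdac1 and Hdac2, both under 30 kb, were also backward, and Hdac4, Hdac7 and Hdac9, all over 50 kb, were called neither. The call of Trrap was lost in 2 of 14 alternative fits.

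Pluripotency genes had 18 members of 34 genes, since many core factors are encoded by short genes. Forward were 7 (38.9%), among them Bmpr1a, a receptor for BMP, with 10.9, 11.4 and 13.3 kb and then 49.1, 47.4 and 35.3 kb (3207 ± 397 bases/min), and parts of the LIF pathway, Lifr (2037 ± 459), Jak1 (2250 ± 230) and Stat3 (2080 ± 229). Lifr had 1 early boundary at 2.5 kb, and Il6st, of the same pathway, was called neither (987 ± 896 bases/min). Ctnnb1, which encodes β-catenin, was the only backward gene, with a transcript of 23.0 kb. Its call held in 6 of 11 alternative fits and was lost when single samples were left out. Esrrb, a marker of these cells, was neither, with means of 6.13 and 2.57 kb and 3 of its 6 boundaries at 2.5 kb.

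Synapse and axon guidance genes, which are very long (median 367 kb), were mostly called neither, as were 5640 of all 8441 genes with a member. Of 62 genes with a member, 16 were forward (25.8%), 0 backward by limma (2 with an unadjusted p below 0.05) and 46 neither. Their median rate was 453 bases/min. Over the 961 genes of at least 200 kb, 23.3% were forward and 0.312% backward. In 21 genes without a 2.5-kb boundary it was 1563 bases/min, the same as over the 3363 such genes of the whole set, 1563 bases/min. The corresponding medians were 1933 bases/min in 12 elongation genes, 1932 in 46 chromatin genes and 1768 in 10 pluripotency genes. Genes with all 6 boundaries at 2.5 kb included Cntnap2, Dcc and Gria1. Forward genes included the ephrin gene Efnb2 (7.0, 9.6 and 4.8 kb, then 34.9, 33.0 and 32.5 kb, 2633 ± 160 bases/min), the Slit ligand gene Slit2 (2053 ± 437 bases/min) and the Eph receptor gene Ephb1 (1027 ± 142 bases/min). The call of Slit2 held in 9 of 13 alternative fits. No statement is made on a list against other genes, since list members were counted and not tested as a set.

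**Figure D5:**
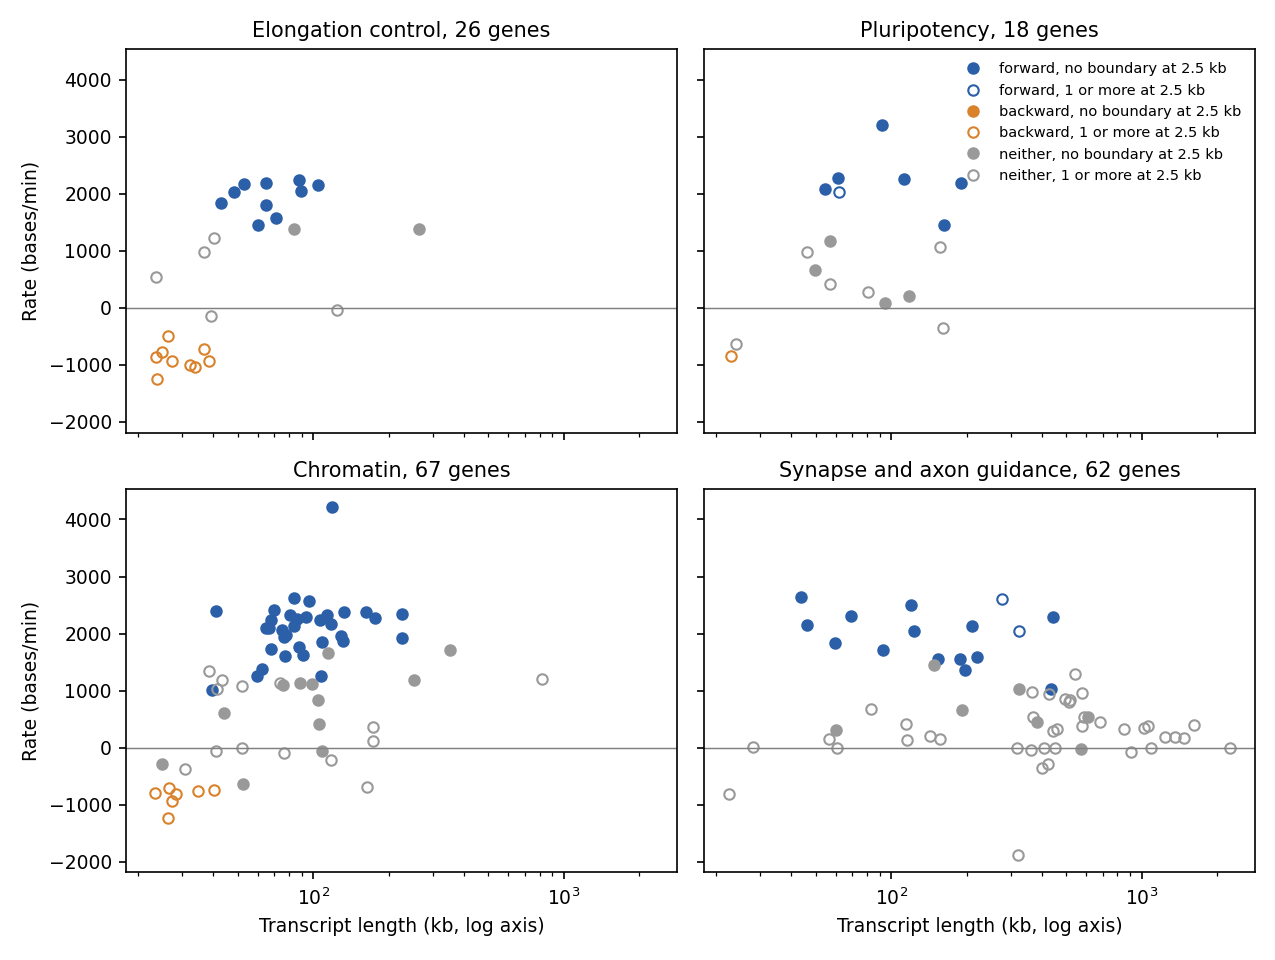
Rate (bases/min) against transcript length (kb, log axis) for the genes of each list, coloured by the limma call, with open symbols for genes with at least 1 boundary at 2.5 kb. Backward genes (orange) all lie below 40.3 kb, and forward genes (blue) from 39.5 kb upwards.

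The advance was set against that of the other genotypes over the members that had boundaries there as well. The difference between the advance in slow/slow and in WT/WT cells, a genotype-by-time interaction, was called in 1376 of 23278 members as farther in slow/slow cells and in 117 as less far (5.91% and 0.503%; limma, against 5.13% and 0.58% of all fitted transcripts). Members called farther were those in which WT/WT boundaries lay at 2.5 kb: 91.8% had at least 1 WT/WT boundary there after 15 min and 2.03% a slow/slow one, against 70.6% and 50.7% of all members tested. Their median rate was 2018 bases/min in slow/slow and -1057 bases/min in WT/WT ESCs.

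In the 3041 members with no 2.5-kb boundary in any of the 12 samples, 51 were called farther and 7 less far, and the median rates were 1503 bases/min in slow/slow and 1170 bases/min in WT/WT cells. The WT/WT replicate medians of these members were 10.9, 17.8 and 11.4 kb after 5 min, with replicate 2 apart from the others, and 29.9, 24.9 and 30.2 kb after 15 min. The slow/slow medians were 11.7, 10.1 and 9.0 kb and then 28.8, 29.4 and 25 kb. The genotypes overlapped at both times (exact permutation test, two-sided, p = 0.3 and p = 0.6). The order of the median rates is the reverse of the paper's, which reports a lower average elongation rate in slow/slow than in wild-type cells. The paper's rates are over its own set of genes common to all genotypes. Without WT/WT replicate 2 of 5 min, the calls over all members numbered 1281 farther and 159 less far.

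Against WT/slow cells, 468 of 22995 members were called farther and 53 less far (2.04% and 0.230%; limma, against 1.76% and 0.254% of all fitted). Among 4079 members without any 2.5-kb boundary, 10 were farther and 0 less far by limma (430 with an unadjusted p below 0.05 in either direction, 203 of them less far). Median rates there were 1620 bases/min in slow/slow and 1423 bases/min in WT/slow cells.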

How the data were processed

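Wave-front boundaries were deposited by the authors as 1 table per sample. RNA labelled with 4sU was sequenced, reads were aligned with Bowtie2 2.2.9 to mm10 (GRCm38) per the submitters' processing notes, and a boundary was called by the authors for each transcript, a distance that belongs to none of the usual units and has another scale, bases from the start site in steps of 100. How 2.5 kb arises is not given in the sources used here. From these tables the members, rates and tests were computed with R 4.3.3, limma 3.58.1, Python 3.11.15, pandas 2.3.3, NumPy 2.4.6, SciPy 1.17.1 and pysam 0.24.0, and plotted with Matplotlib 3.10.9. Boundaries in bases were fitted with limma (1 prior variance, groups of 3 samples) over transcripts of any length with all 6 boundaries, and called at a Benjamini-Hochberg adjusted p below 0.05. The fits were tested on simulated data with 200 of 30758 transcripts shifted. With shifts of 20 kb, 87 were recovered beside 9 false calls. With shifts of 10 kb, 0 were recovered beside 0 false calls. Calls were far more common in the data, 18.6% forward and 14.7% backward, so the adjustment was less strict there. The recoveries therefore do not give the power of the fit to the data. Moves under 10 kb were called there, as in Ttc8, with means of 6.4 and 12.4 kb. Even so, a transcript without a call is not shown to be still. Symbols, exons and sequences came from GENCODE M21 and GRCm38, where 122200 of 122968 identifiers matched.

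Named genes were the 10 highest and 10 lowest rates, the 5 and 3 largest falls without and with 2.5 kb, the 3 largest departures from constant speed either way, the study's examples, and in each list those called with the highest and lowest rate and the most exons; other list members were chosen after their values were seen, and some genes of the lists are counted but not reported here by name. Members and lists were chosen with earlier results of these data known. Alternatives were another fit (trend, replicate block, log2, members alone), other lengths, 2.5-kb boundaries left out (all but the first early one of each transcript), 1 transcript per gene and each sample left out.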

Additional observations from a re-analysis of the deposited data

Results flagged for a closer look

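Results are given here where the advance between 5 and 15 min differed between genotypes in the limma interaction test (adjusted p below 0.05, Benjamini-Hochberg over all transcripts). Over the members, the advance was farther in slow/slow than in WT/WT ESCs in 1376 and less far in 117.

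Of the genes named above, Kdm2b had a rate 5250 bases/min higher in slow/slow than in WT/WT ESCs (limma interaction, adjusted p = 0.0473). Against WT/slow cells it was 5117 bases/min higher (limma interaction, adjusted p = 0.0417). Rates in WT/WT and WT/slow cells were negative, -1023 and -890 bases/min, with 2 of 6 boundaries at 2.5 kb in each. The WT/WT boundaries of Kdm2b were 12.8, 41.5 and 10.2 kb after 5 min and 28.8, 2.5 and 2.5 kb after 15 min. Vps13b differed from WT/WT cells by 5997 bases/min (adjusted p = 0.00933), with all 3 WT/WT boundaries at 2.5 kb after 15 min. Mettl25 differed from WT/slow cells by 3763 bases/min (adjusted p = 0.0372), where 5 of the 6 WT/slow boundaries, all 3 late ones included, lay at 2.5 kb.

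Flrt2 moved back in slow/slow cells and had a rate of 127 bases/min in WT/WT cells, a difference of -1270 bases/min (adjusted p = 0.0146), with WT/WT boundaries of 5.9, 3.9 and 0.9 kb and then 5.8, 5.4 and 3.3 kb. Utrn differed from WT/WT cells by 2023 bases/min (adjusted p = 0.00517). Bmpr1a differed by 4153 bases/min from WT/WT cells (adjusted p = 0.00433) and by 5643 bases/min from WT/slow cells (adjusted p = 0.0451), and Ephb1 by 1077 bases/min from WT/slow cells (adjusted p = 0.0138). After 15 min all 3 WT/WT boundaries of Bmpr1a lay at 2.5 kb, and those of Utrn at 2.5, 2.5 and 6.3 kb. The WT/slow boundaries of Bmpr1a after 15 min were 2.5, 5.3 and 3.1 kb.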

How the results depend on the processing

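The median rate of 370 bases/min over all members became 1043 bases/min at 60 kb or longer, 1580 without members that had a boundary at 2.5 kb, 1277 with such boundaries left out, and 70.0 as the mean difference of replicate medians, a change of statistic that gives the same value with and without replicate numbers as pairs (exact sign-flip test over the pairs, p = 0.75). Leaving out single samples gave 343 to 407 bases/min, and 1493 to 1708 bases/min in members without 2.5 kb. The difference in the share at 2.5 kb, 13.8 percentage points (12.5 to 15.2 with single samples left out), turned to -2.82 points at 60 kb or longer. Where 2.5-kb boundaries were left out, here and below, all late ones were dropped. The first early one of each transcript was kept.

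The count of forward members, 5659, was 1897 at 1 transcript per gene, 3662 in a fit to 60 kb or longer and 4624 to 6814 with single samples left out. The backward count, 2521, was 904 at 1 transcript per gene, 54 without 2.5 kb, 22 at 60 kb or longer, 95 with 2.5-kb boundaries left out and 1924 to 2824 with single samples left out. The replicate block gave 5270 and 1725. Of members faster than constant speed, 47 in number, limma called 5 with the replicate block, 18 with a trended and robust prior, 13 in members alone, 83 with constant transcripts kept, and 0 without 2.5 kb, at 60 kb or longer or with 2.5-kb boundaries left out (32, 39 and 94 with an unadjusted p below 0.05). Leaving out single samples gave 18 to 90, with 23 and 18 without 5-min replicates 2 and 3, and 90 and 84 without 15-min replicates 1 and 3. The slower count, 3935, was 29 without 2.5 kb and 0 by limma at 60 kb or longer and with 2.5-kb boundaries left out (777 and 1755 with an unadjusted p below 0.05), and 3237 to 4235 with single samples left out.

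The 1376 members farther than in WT/WT cells became 51 without 2.5 kb, 468 against WT/slow cells and 1118 to 2174 with single samples left out (2174 without slow/slow 15-min replicate 1, 2162 without WT/WT 15-min replicate 3). The 117 less far became 7, 53 and 94 to 251 (251 without WT/WT 15-min replicate 3). Without 2.5 kb, the median rate by length turned from -470 to 13.3 bases/min at 20 to 30 kb and moved from 457 to 1528 at 30 to 60 kb, from 1223 to 1730 at 60 to 100 kb, from 1083 to 1703 at 100 to 200 kb and from 727 to 1535 at 200 kb or longer. The sign of the weak relation with length turned among forward genes alone (Spearman's rho 0.054), and that with the first intron in Pearson's r (-0.048). The refits for constant speed, the length classes without 2.5 kb, the checks of gene features and the fits without single WT/WT samples were added after the data were seen. The cause of these changes was not tested. Of the 42 genes chosen by the rule no direction reversed. The call was lost in 15 with the replicate block, and in 7 to 16 with single samples left out. Deviations from the group means correlated at 0.126, 0.125 and 0.073 for samples of equal number and at -0.107 to -0.000477 for others, so each sample was closest to its own number, but not above 0.1 in every pair, and the numbers were not taken to pair the samples. Depth is unknown, and 3 replicates limit single rates.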

Other observations

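Of the 9703 members that had no boundary at 2.5 kb at the earlier times, 9305 had 3 slow/slow boundaries after 30 min. Boundaries at 2.5 kb made up 66.2, 74.6 and 69.8% of those that the 9703 members had in each replicate. The remaining boundaries after 30 min had medians of 6.9, 8.5 and 5.2 kb in the 3 replicates, nearer to the start site than the 26.0 to 30.4 kb of these members after 15 min. In members of at least 200 kb the share at 2.5 kb was 61.8, 70.5 and 66.6%.

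In 27 genes of at least 60 kb the start of another coding gene on the opposite strand lay within the first 30 kb, and their median rate was 1070 bases/min, with 9 called forward by limma (33.3%). Of the 22 genes with such a start on the same strand 5 were called forward (22.7%), and of the 2084 with neither 56.3%.

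The 117 members that advanced less far in slow/slow than in WT/WT ESCs were long, with a median of 93.2 kb, against 50.6 kb in the 1376 that advanced farther, and their median rates were 623 bases/min in slow/slow and 3063 bases/min in WT/WT cells.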
